A study of Mus musculus with 2 samples.

Results

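Among splenic donor cells sorted as T cells after allogeneic hematopoietic cell transplantation (allo-HCT), 93 of 14973 kept barcodes carried the transcripts of developing neutrophils and almost none of the T cell receptor complex. They were chosen by a rule on unique molecular identifiers (UMIs, the tags that count captured RNA molecules). A barcode had to have 500 to 7500 detected genes and at most 15% mitochondrial UMIs, at least 50 UMIs of S100a8 and S100a9 together, fewer than 5 of the complement genes C1qa, C1qb and C1qc, and at most 5 of the T genes Cd3d, Cd3e, Cd3g, Trac, Trbc1 and Trbc2. There were 34 such cells among 7179 at day +7 and 59 among 7794 at day +14. The rule reads the same counts that are described below, so the levels of these 11 genes are the choice itself and not a finding.

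The study asked how T cell metabolism changes during acute graft-versus-host disease, and for this purpose measured 2 droplet libraries, 1 from day +7 and 1 from day +14. BALB/c recipients had been lethally irradiated and given T cell-depleted bone marrow together with splenic T cells, both from C57BL/6 mice, in both libraries alike, and the library names carry PBS. Cells were taken from the spleen by flow sorting for CD45, donor H2Kb and surface TCRβ without recipient H2Kd, and suspensions were pooled, so that no value belongs to 1 mouse. The wording that accompanies both libraries describes a sort at day +7, and the day was taken from the library title.

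Neutrophils are made in the marrow in a fixed order that can be read from their granules. Promyelocytes fill azurophil granules with proteases such as elastase and with myeloperoxidase, myelocytes and metamyelocytes then fill specific granules with lactoferrin and cathelicidin, and band and segmented cells add gelatinase, receptors for chemokines and cytokine genes. S100a8 and S100a9 encode the subunits of calprotectin, the main cytosolic protein of these cells. The NADPH oxidase makes the superoxide of the respiratory burst from NADPH, which the oxidative branch of the pentose phosphate pathway (PPP) supplies.

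Few barcodes lay near the limits of the rule. The member with the fewest S100a8 and S100a9 UMIs had 176 at day +7 and 130 at day +14, whereas the highest barcode under the limit that met the other conditions had 14 and 34, with 0 and 3 barcodes between 20 and 49. Members held at most 2 UMIs of the 6 T genes at day +7 and at most 4 at day +14, and the lowest S100-rich barcode over that limit held 38 and 22. C1q genes reached 1 UMI in a member of either library, against 5 in the lowest barcode left out for them. The share of members was 0.474% [0.328, 0.661] at day +7 and 0.757% [0.577, 0.975] at day +14. Brackets throughout give 95% intervals, exact binomial for shares, exact Poisson for levels and exact conditional binomial for ratios. They cover counting error only, and those of levels and ratios leave out the spread between cells. With 1 library per day there was no replicate check, no test was made, and the gate of the sort sets this share.

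**Figure D1:**
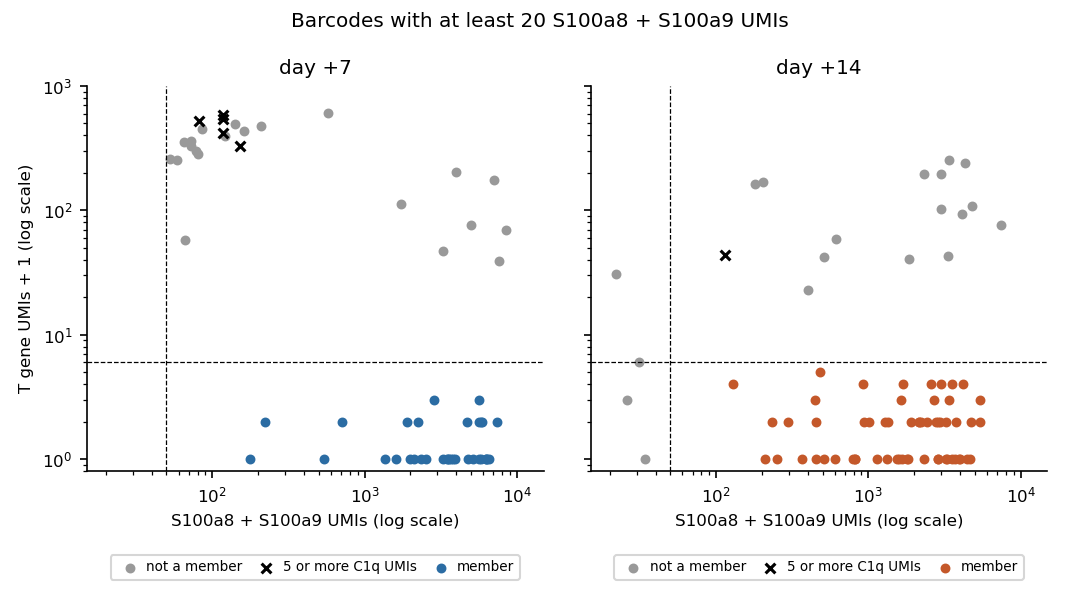
UMIs of S100a8 and S100a9 (horizontal, log scale) against UMIs of the 6 T genes plus 1 (vertical, log scale) for each kept barcode with at least 20 S100 UMIs, in the day +7 library (left) and the day +14 library (right), with dashed lines at the limits. Members (34 and 59, colored) lie along the bottom, and the grey points above the line are barcodes that also carry T genes.

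Besides the members, 21 S100-rich barcodes at day +7 and 15 at day +14 exceeded the limit on T genes. Of these, 7 and 10 held at least 1000 S100 UMIs together with 38 to 203 and 40 to 253 T gene UMIs. They are not members. The other 14 at day +7 were deep barcodes with a median of 55566.5 UMIs, in which S100 UMIs made up at most 60.2 per 10000. With no limit on T genes the share at day +7 was 0.766%. Scrublet marked 0 barcodes in either library, which means that its call has not worked, and doublets were not removed. As an alternative, the 433 and 518 barcodes of highest Scrublet score were left out, which took away 0 members at day +7 and 3 at day +14.

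Members held between 3560 and 43446 UMIs at day +7, with a median of 11920.5, and between 1301 and 28535 at day +14, with a median of 5803. The cells classed as T cells for comparison, which had over 5 T gene UMIs, under 50 S100 UMIs and under 5 C1q UMIs, had medians of 9176 (6860 cells) and 8219.5 (7538 cells). The day +14 members were thus the shallower ones. The libraries listed 20 barcodes in common, and 0 of the members carried one of them. Transcripts of each population were also found in the other, where free RNA and doublets cannot be told apart. Of the T cells, 12.6% at day +7 and 25.4% at day +14 had a UMI of S100a8 or S100a9, at most 7 and 22 in a cell. The 6 T genes in members were at 28.9 CPM (counts per 1000000 UMIs of the group, from UMIs summed over its cells) and 130 CPM, 0.485% and 1.71% of their level in T cells. The limits on T genes bound these values. The 14 T cell genes not used by the rule were at 142 and 288 CPM in members, 0.0109-fold and 0.0222-fold their level in T cells.

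The label was checked against the 10 of 12 defining genes of the neutrophil lineage that the rule did not use. They had UMIs in 17 (Csf3r) to 34 (Lcn2) of 34 members at day +7, and in 25 (Csf3r) to 55 (Lcn2) of 59 at day +14. Ngp, the gene of neutrophilic granule protein, had UMIs in 32 of 34 members at day +7 and in 50 of 59 at day +14. Per 10000 UMIs it ran from 0 through a median of 176 to 422 at day +7, and from 0 through 332 to 944 at day +14. S100a8 and S100a9, by which the rule chose the cells, together took a median of 34.6% of a member's UMIs at day +7 and 34.3% at day +14. The markers of dendritic cells (5 genes) and of natural killer cells (2 genes) had 0 UMIs in the members of either library, which at a floor of 3 counts allows up to 6.66 CPM in the first library and 7.25 CPM in the second. The B and plasma cell markers had 13 and 18 UMIs, the platelet markers 0 and 1, the erythroid markers 2 and 1, and those of basophils, eosinophils and mast cells 3 and 1. Single cells went against the name. With Ccr2, F13a1, Fn1, Ms4a6c and Csf1r summed, 4 members at day +7 held 12 to 70 UMIs and 3 at day +14 held 10 to 69, whereas no other member held more than 2. These genes mark monocytes, and the 7 cells stay among the members below. Without them the share of members was 0.418% and 0.719%. The whole list of 7 monocyte genes had 973 and 972 UMIs, 3.60-fold and 4.66-fold its level in T cells. Of these, 821 and 866 were of Ly6c2, and Cx3cr1 had 0. The 8 macrophage genes had 48 and 65 UMIs, 3.75-fold and 6.05-fold the level in T cells, with Cd5l at 0 and 19 and 25 UMIs of Slc40a1, the iron exporter. The part of RNA from other myeloid cells in the members' values was not tested.

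The cells were first placed along the granule sequence. All members were drawn down to 2000 UMIs each, a depth that 5 members of day +14 did not reach. Cells with at least 10 UMIs of Mpo, Elane, Prtn3 and Ctsg were put in an azurophil range, and the others with at least 20 UMIs of Ltf, Camp, Ngp, Lcn2 and Chil3 in a specific range. These are ranges of a score and not cell types, and 1 cell of each library lay within 5 UMIs of the azurophil limit and 4 and 3 within 10 UMIs of the specific limit. The specific range held 29 of 34 cells at day +7 (85.3% [68.9, 95.05]) and 48 of 54 at day +14 (88.9% [77.4, 95.8]). The azurophil range held 2 cells of each library, and 3 and 4 cells were low in both. The intervals of the shares overlapped widely between the days. The 2 azurophil cells of day +7 held 24237 and 43446 UMIs, and those of day +14 held 20968 and 28535. Among the 5 members of day +14 too shallow to be thinned, 1 had 68 azurophil UMIs of 1301 in total and 1 had 56 of 1523, so that the depth limit itself kept shallow azurophil cells out of this range. Thinned to 1000 UMIs, which keeps all members, the azurophil range held 2.94% at day +7 and 6.78% at day +14. The specific range at day +14 was then 76.3%. Halving the limits left the low range at day +7 with 0 cells.

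**Figure D2:**
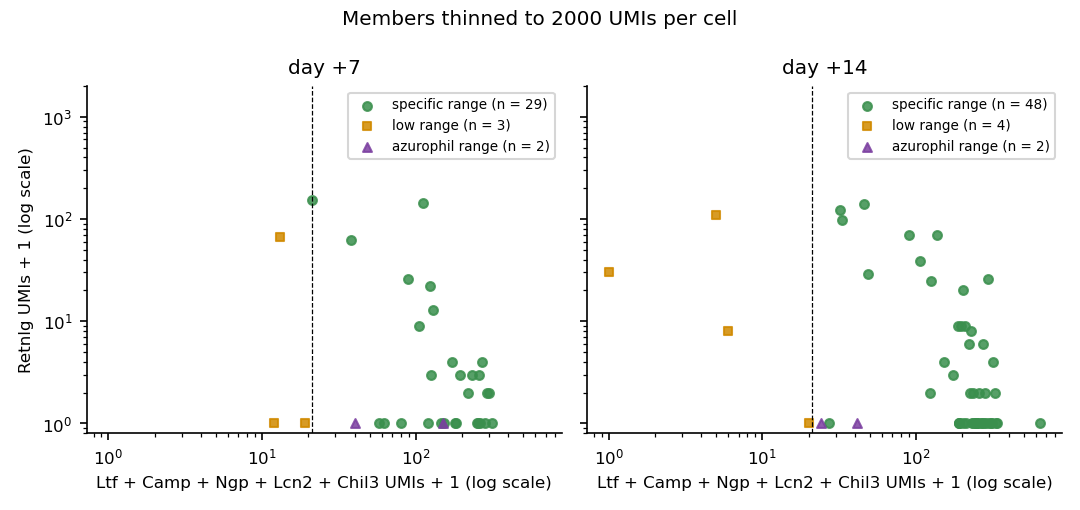
Each point is 1 member thinned to 2000 UMIs, with summed UMIs of 5 specific granule genes plus 1 (horizontal, log scale) against Retnlg UMIs plus 1 (vertical, log scale) at day +7 (34 cells, left) and day +14 (54 cells, right). Most cells lie in the specific range with little Retnlg, and the cells richest in Retnlg lie toward lower specific granule counts on both days.

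The specific granule genes differed in how many members held them. At day +7 they ranged from Lcn2 in 34 of 34 and Chil3 in 33 to Fcnb and Mmp8 in 20 each, and at day +14 from Lcn2 in 55 of 59 and Chil3 in 51 to Mmp8 in 30 and Fcnb in 24, with Olfm4 as the rarest on both days. Camp, the precursor of the antimicrobial peptide cathelicidin, had a summed level of 20108 CPM [19696, 20526] on day +7 and of 31122 CPM [30587, 31664] a week later. Its per-cell level ran from 0 to 471 per 10000 UMIs around a median of 168 at day +7, and from 0 to 886 around 303 at day +14. The cells of both days thus covered much of the same span. Ltf, the gene of the iron-binding protein lactoferrin, was at 6268 and 9587 CPM, and Lcn2, which binds bacterial siderophores, at 17317 and 15495 CPM. Chil3, a chitinase-like protein of myelocytes, was lower in the later library, with 9051 CPM against 13616. Camp and Ngp ordered the cells alike within each library, with a Spearman correlation of 0.84 over 34 cells at day +7 and 0.76 over 54 thinned cells at day +14, and Camp and Ltf with 0.71 and 0.40. These describe cells that share a library and a thinned depth. Camp (chr9:109847377-109849456), Ngp (chr9:110419808-110423012) and Ltf (chr9:111019292-111042766) all lie on chromosome 9 of GRCm38.

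Transcripts of C/EBP epsilon, the factor that drives the specific granule program, were detected in most members. Cebpe, its gene, was at 546 CPM in 26 of 34 members at day +7 and at 519 CPM in 43 of 59 at day +14, against 0.124 and 0.0491 CPM in T cells. Spi1, which encodes the myeloid factor PU.1, was at 457 and 440 CPM, and Cebpb and Cebpd were detected in 27 to 29 members at day +7 and 41 to 44 at day +14. Irf8, a factor of monocytes and dendritic cells, had 1 and 4 UMIs, and Gata2, a factor of basophils and early progenitors, had 0. Of the 12 factors, 6 were used in the comparison of days, 4 higher and 2 lower with a median of 0.11, and Myb, a factor of progenitors, was past 2-fold with 11 and 22 UMIs (1.09 [0.016, 2.31]).

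The 250 bases before the annotated start of each gene were searched for TTGCNNAA, a core that C/EBP factors recognize, on both strands and with overlaps counted. It was found in 5 of the 11 specific granule genes (Ngp, Ltf, Lcn2, Mmp8 and Fcnb) and in 0 of the 5 azurophil genes with an entry, and 9.56% of all 32851 promoter windows hold it. The 100 bases next to the start are printed for Ngp and Ltf, because they are the specific granule genes at the center of the ranges whose match lies within that stretch, with the match in capitals, which reads TTNNGCAA on this strand, and the gene's strand 5′ to 3′, from RefSeq on GRCm38.p6 (Ngp, chr9:110419708-110419807, plus strand, and Ltf, chr9:111019192-111019291, plus strand).
Ngp: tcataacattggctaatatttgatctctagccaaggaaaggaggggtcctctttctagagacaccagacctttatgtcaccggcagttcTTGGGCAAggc
Ltf: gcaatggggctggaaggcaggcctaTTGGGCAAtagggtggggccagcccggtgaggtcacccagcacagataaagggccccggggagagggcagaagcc
The printed match lies 11 bases before the start in Ngp and 75 bases before it in Ltf. Ngp has 2 matches in the 250 bases, of which the nearest is printed. Retnlg, which is in neither list, has 1 match, 246 bases before its start. These are matches of letters only, since no binding was measured.

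For day +14 over day +7, log2 ratios were taken of the CPM of each gene plus 1 within the members. Genes were used where their mean was at least 10 CPM and where at least 20% of the cells of the higher library had a UMI. Of 3517 such genes, 200 (5.69%) were at least 2-fold higher at day +14 and 203 (5.77%) at least 2-fold lower, and 255 of these 403 had an interval without 0. The median of all genes used was −0.029. None of the specific granule genes used reached 2-fold. Of the 11, 10 were used, 6 were higher and 4 lower, with a median of 0.30. Camp had a ratio of 0.63 [0.59, 0.67], Ltf of 0.61 [0.54, 0.68], Ngp of 0.47 [0.44, 0.51] and Cd177, a surface protein of neutrophils, of 0.50 [0.30, 0.70]. Chil3 was at −0.59 [−0.65, −0.53] and Ifitm6 at −0.64 [−0.76, −0.52]. Members of the list thus lay on both sides of 0. Within the specific range alone the ratio of Camp was 0.65 and that of Chil3 −0.55, and without the 7 cells that held monocyte genes Chil3 was at −0.72. Olfm4, whose protein marks a subset of specific granules, had 0 UMIs at day +7 and 45 at day +14, all of them in 3 cells.

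The azurophil genes were concentrated in single cells. Mpo had 253 UMIs at day +7, 228 of them in 1 cell, and 344 at day +14, 294 of them in 1 cell. Elane had 471 UMIs in 4 cells and 828 in 10 cells, with 353 and 547 in the richest cell. Their ratios between the days therefore rest on single cells and are not given. Prtn3 and Ms4a3 reached more cells, 14 and 20 at day +7 and 12 and 17 at day +14.

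Of the 8 genes of gelatinase and late granules, all were used, 6 were higher at day +14 and 2 lower, with a median of 0.45 and 0 past 2-fold. Mmp9, the gelatinase itself, was at 475 CPM and at 848 CPM on the later day, a ratio of 0.83 [0.59, 1.09], and Itgam, the integrin chain CD11b, had a ratio of 0.68 [0.36, 1.02]. Ly6g, the surface antigen by which mouse neutrophils are recognized, was at 404 CPM in 25 of 34 cells and at 667 CPM in 42 of 59 cells, a ratio of 0.72 [0.45, 1.00]. Hp, the gene of haptoglobin, was lower, with −0.39 [−0.53, −0.24].

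Among 15 genes of segmented and circulating neutrophils, 13 were used, with a median of 0.050, 1 gene past 2-fold higher and 3 past 2-fold lower. Retnlg, a resistin-like secreted protein of late neutrophils, was at 4174 CPM in 23 cells and at 4103 CPM in 39, with per-cell values from 0 to 742 per 10000 and from 0 to 659. The days overlapped over nearly the whole span. Across thinned cells its Spearman correlation with the specific granule sum was −0.19 at day +7 and −0.47 at day +14. Cxcr2, the receptor that draws neutrophils out of the marrow, had a ratio of −0.34 [−0.79, 0.10], and Csf3r, the receptor of G-CSF, 0.46 [−0.22, 1.17], differences that were not detectable at this depth over all members. Within the specific range Cxcr2 was at −0.66 [−1.15, −0.18], with UMIs in 86.2% of 29 and 45.8% of 48 cells, and Csf3r at 0.0016 [−0.85, 0.85]. Counts and shares of cells with a UMI are unthinned here, and the cells of this range had medians of 11850 and 5985 UMIs. Ccl6, a chemokine, was at 147 and 317 CPM, a ratio of 1.11 [0.67, 1.56], which was 0.45 without the barcodes of highest Scrublet score. Il1r2, the decoy receptor of interleukin 1, had 127 UMIs in 30 of 34 cells at day +7 and 38 UMIs in 27 of 59 at day +14, a ratio of −1.61 [−2.18, −1.09]. Wfdc17 had 209 UMIs in 15 cells and 44 in 7, a ratio of −2.12 [−2.63, −1.65], which was −1.54 for the mean of per-cell CPM and −3.88 within the specific range. In T cells Il1r2 was at 3.63 and 16.6 CPM, whereas Wfdc17 stood at 1.58 and 1.73 CPM.

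The lowest ratio of the named genes was that of Stfa2, which belongs to the stefin A cluster, genes of small intracellular inhibitors of cysteine proteases that neutrophils express. The set was drawn up after Stfa2 and Cstdc4 had come out among the 10 lowest ratios, so that its direction is a description. Its 7 genes span chr16:36156811-36455392 from Stfa2l1 to Stfa3. Summed, they had 884 UMIs at day +7 and 113 at day +14, 1963 CPM [1836, 2097] against 273 CPM [225, 328] and a log2 ratio of −2.85 [−3.14, −2.56]. Stfa2 had 169 UMIs in 11 cells at day +7 and 2 UMIs in 1 cell at day +14, a ratio of −6.01 [−9.34, −4.40]. Cstdc4 had 208 UMIs in 10 cells and 31 in 4 (−2.61 [−3.22, −2.08]), and Stfa2l1 had 100 UMIs in 15 cells and 29 in 5 (−1.65 [−2.31, −1.06]). All 3 were used and were past 2-fold lower, although the mean of per-cell CPM gave −0.89 for Stfa2l1, and Cstdc4 had −3.80 without the barcodes of highest Scrublet score. Stfa1, with 130 and 9 UMIs, and Cstdc5, with 209 and 42, were in too few cells to be used. Stfa3 had 67 UMIs at day +7 and 0 at day +14, which against a floor of 3 counts over the day +14 members is at least 20.5-fold lower. Cstdc6 had 1 and 0 UMIs.

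The stefin UMIs were unevenly spread over cells. At day +7, 19 of 34 members had any and the 3 richest cells held 66.5% of them, and at day +14, 9 of 59 had any and the 3 richest held 72.6%. After thinning to 2000 UMIs, so that depth is equal, 14 of 34 cells (41.2% [24.6, 59.3]) and 5 of 54 cells (9.26% [3.08, 20.3]) had a stefin UMI. The intervals did not overlap. Thinning left out 5 shallow members of day +14, among them cells with 5 and 22 stefin UMIs. At day +14 the cells with a stefin UMI were shallow, with a median of 2790 UMIs against 5996.5 in the others, while at day +7 the medians were 11991 and 11231. Within the specific range, which also lacks these 5 shallow members, Stfa2 had 169 and 0 UMIs, and the ratios were −4.29 for Stfa2l1 and −3.39 for Cstdc4.

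The genes of this cluster are near copies of each other and can share reads, so that the split of UMIs between them is uncertain and the sum is the firmer value. Upstream sequences of the 3 genes used are shown because these genes were low together at day +14. Each sequence is the 100 bases before the annotated start, 5′ to 3′ on the gene's strand, from RefSeq on GRCm38.p6. Capitals mark the longest run common to all 3, and the positions are chr16:36408364-36408463 on the minus strand for Stfa2, chr16:36156711-36156810 on the plus strand for Stfa2l1 and chr16:36184112-36184211 on the plus strand for Cstdc4.
Stfa2: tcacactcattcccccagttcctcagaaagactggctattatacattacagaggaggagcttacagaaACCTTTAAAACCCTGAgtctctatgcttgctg
Stfa2l1: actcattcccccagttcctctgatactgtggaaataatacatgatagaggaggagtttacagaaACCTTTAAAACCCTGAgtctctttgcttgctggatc
Cstdc4: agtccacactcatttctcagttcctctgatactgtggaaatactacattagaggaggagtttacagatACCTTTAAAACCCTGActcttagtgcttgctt
The run of 16 bases was found, on either strand, in 6 of the 32851 windows (0.0183%), those of Stfa1, Stfa2, Stfa2l1, Cstdc4, Cstdc3 and Gm7260. Cstdc5 and Stfa3, also with fewer UMIs at day +14, were not among these 6, and a link of the run to the levels was not tested. Aligned over these stretches, Stfa2 and Stfa2l1 were identical at 80.8% of the columns, Stfa2 and Cstdc4 at 77.9%, and Stfa2l1 and Cstdc4 at 79.4%. For scale, Stfa2 and Ngp aligned in the same way matched at 51.8%.

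**Figure D3:**
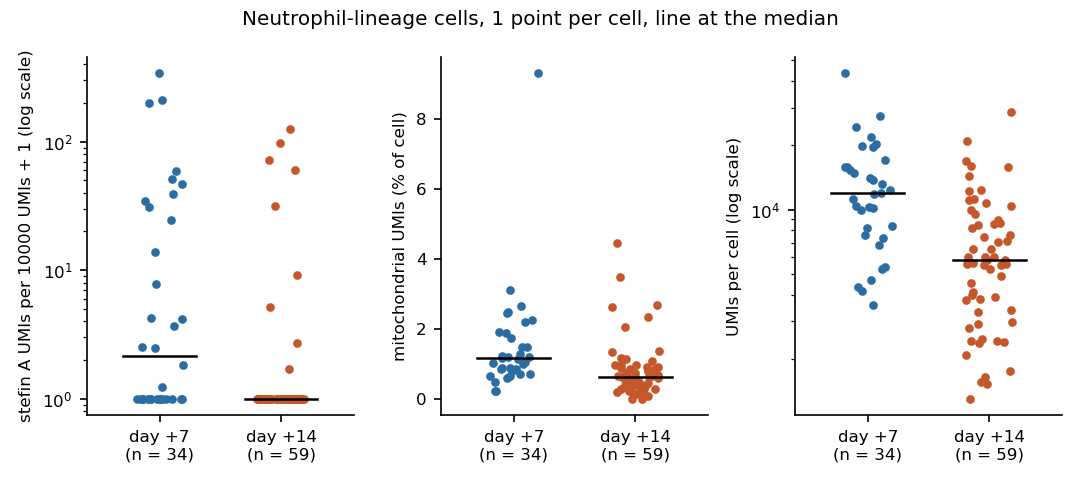
Stefin A UMIs per 10000 plus 1 (left, log scale), percent of UMIs from mitochondrial genes (middle) and total UMIs (right, log scale) for the 34 members of day +7 and the 59 of day +14, 1 point per cell with a line at the median. Stefin UMIs were found in 19 and 9 cells, and the medians of the mitochondrial share were 1.16% and 0.622%.

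Transcripts of the mitochondrial genome were lower at day +14 in members. The list was also added after the data were seen. Of its 13 genes, 12 were used, all 12 were lower and 6 of them at least 2-fold, with a median ratio of −1.01 and intervals under 0 for each. Their summed level was 16680 CPM on day +7 and 9005 CPM on day +14, a ratio of −0.89 [−0.95, −0.83], against 23482 and 23942 CPM in T cells. mt-Atp6 had a ratio of −1.07 [−1.20, −0.95] in members and of 0.0061 in T cells, and mt-Co1 of −0.72 [−0.85, −0.58] and −0.17. The mitochondrial share of single members had quartiles of 0.821% and 1.85% at day +7 and of 0.386% and 0.903% at day +14, so that the quartile ranges overlapped only between 0.821% and 0.903%. Members with at least 5000 UMIs had medians of 1.17% (30 cells) and 0.626% (36 cells). The specific range had 1.05% and 0.622%. Without the 7 cells that held monocyte genes the median ratio of the list was −1.36. Gm42418, a transcript that overlaps ribosomal RNA, also differed, at 42006 and 13207 CPM in members and 18131 and 5862 CPM in T cells. The part of depth and RNA quality in these ratios was not tested.

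**Figure D4:**
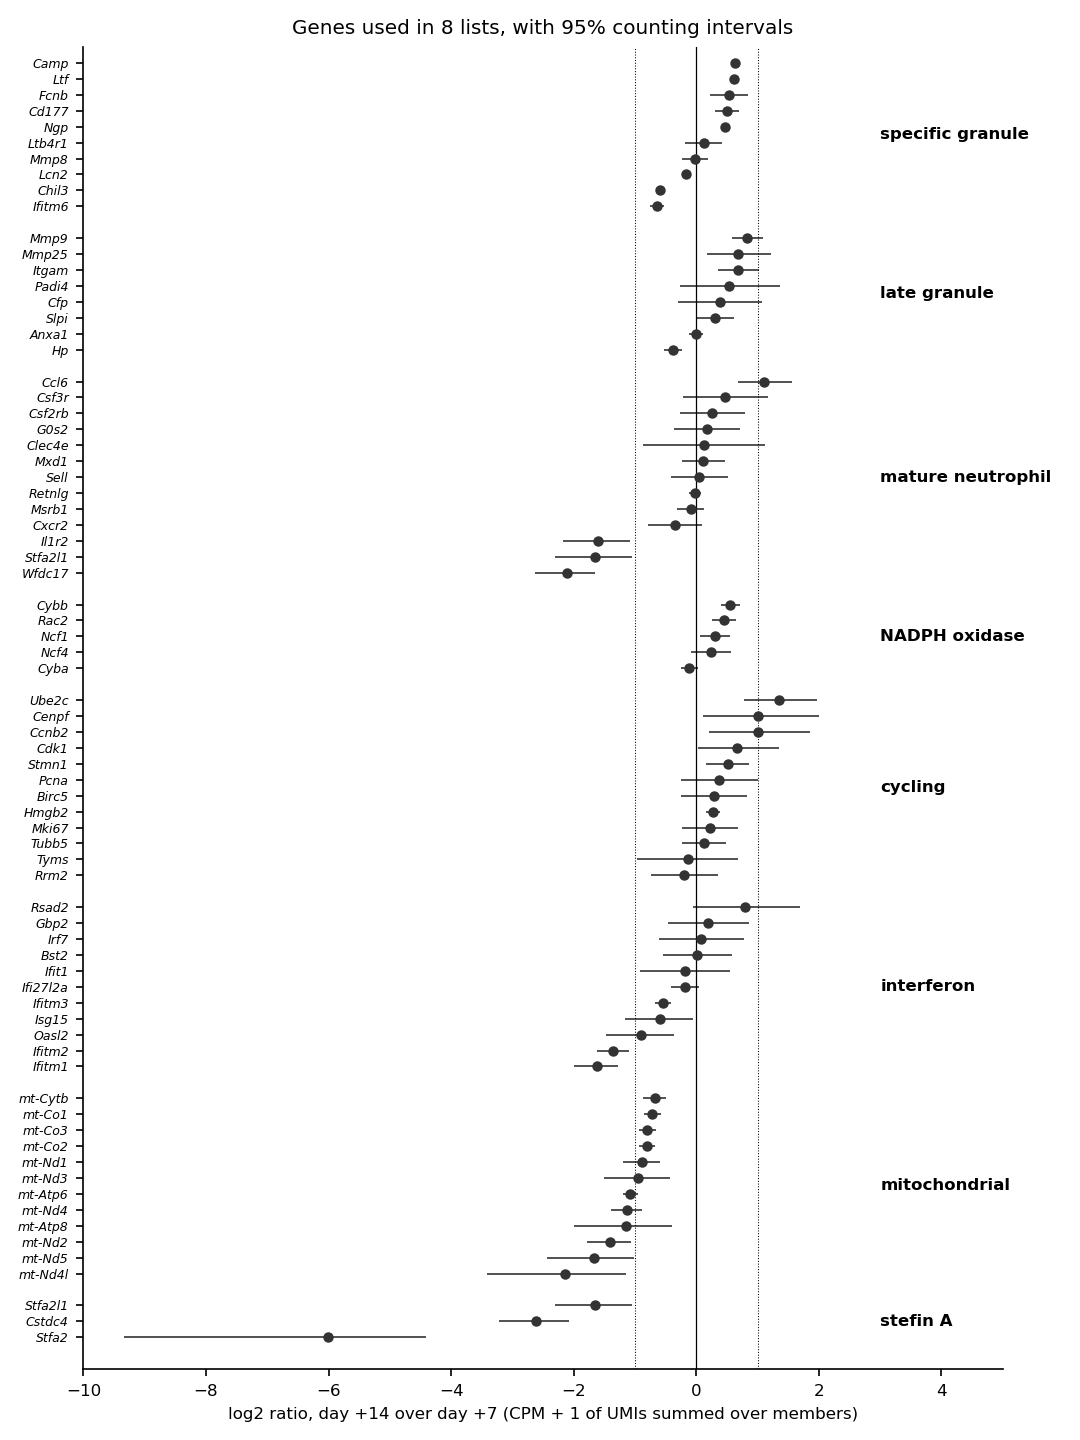
Log2 ratio of day +14 over day +7 (CPM plus 1 of UMIs summed over members) for the genes used in 8 lists, less any not reported here, with 95% counting intervals as bars and dotted lines at 2-fold, and Stfa2l1 drawn in both lists that hold it. The mitochondrial and stefin A genes lie left of 0, all 12 and all 3, while the specific granule genes lie on both sides.

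The genes of the respiratory burst were high in these cells relative to the T cells of the same libraries. Over all genes outside the rule, 710 of 6289 (11.3%) were at least 2-fold higher in members in both libraries and 1962 (31.2%) at least 2-fold lower, with a median log2 ratio of −0.68 at day +7 and −0.76 at day +14. The rule set these cells apart by some of their genes, so that ratios over T cells are a description. Of the 6 NADPH oxidase genes, 4 were at least 2-fold higher in both. Cybb, the catalytic subunit gp91phox, was at 1323 CPM in 33 of 34 members and at 1940 CPM in 51 of 59, against 3.25 and 6.89 CPM in T cells. The cytosolic subunits Ncf1 and Ncf4 had ratios of 5.50 and 4.42 and of 1.91 and 2.06, whereas Rac2, the GTPase that T cells also use, had −0.46 and 0.21. Cyba, the partner of Cybb in the membrane, had 0.98 and 1.15. From day +7 to day +14, Cybb had a ratio of 0.55 [0.40, 0.71] within members, and 5 of the 6 genes were higher with a median of 0.29.

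The 3 oxidative PPP genes together were at 691 CPM [616, 772] and 797 CPM [714, 888] in the members of the earlier and the later day, 2.65-fold [2.37, 2.97] and 2.67-fold [2.39, 2.97] their level in T cells. The enzymes did not contribute equally. G6pdx, the glucose-6-phosphate dehydrogenase that commits glucose to the pathway, was at 249 and 215 CPM against 16.7 and 18.1 CPM in T cells, log2 ratios of 3.82 and 3.50. Pgd, the gene of 6-phosphogluconate dehydrogenase (6PGD), was at 309 and 416 CPM against 42.3 and 52.8 CPM, ratios of 2.84 and 2.95. Pgls, the lactonase between them, had −0.59 and −0.45, near the medians of −0.68 and −0.76 over all genes compared. Of the non-oxidative genes, Tkt, the transketolase, had 2.18 and 2.20 and Taldo1, the transaldolase, 1.13 and 1.44, and the 4 genes summed were 2.91-fold and 3.35-fold the level in T cells. Between the days, Pgd had a ratio of 0.43 [0.10, 0.76] within members and G6pdx of −0.21 [−0.63, 0.20]. Neither reached 2-fold.

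Glycolysis genes summed to 4519 CPM at day +7, 1.00-fold [0.957, 1.05] the level in T cells, and to 5787 CPM at day +14, 0.828-fold [0.795, 0.862]. Single genes lay on both sides of the level in T cells, beside median log2 ratios of −0.68 and −0.76 over all genes compared. Hk3, the hexokinase of myeloid cells, was at 124 and 164 CPM against 0.311 and 0.294 CPM in T cells, and Gpi1, the glucose phosphate isomerase, had ratios of 1.54 and 1.28. Pfkp, a phosphofructokinase, was lower than in T cells, with −2.16 and −1.68, as was Ldha, the lactate dehydrogenase chain, with −0.93 and −1.21. From day +7 to day +14, 10 of the 12 glycolysis genes used were higher in members, with a median of 0.42 and 0 past 2-fold. Without the 7 cells that held monocyte genes this median was 0.081. Pkm, the pyruvate kinase, had the ratio 0.73 [0.51, 0.97] in members and 0.91 in T cells, and Tpi1 had 0.83 [0.37, 1.31] and 1.34.

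**Figure D5:**
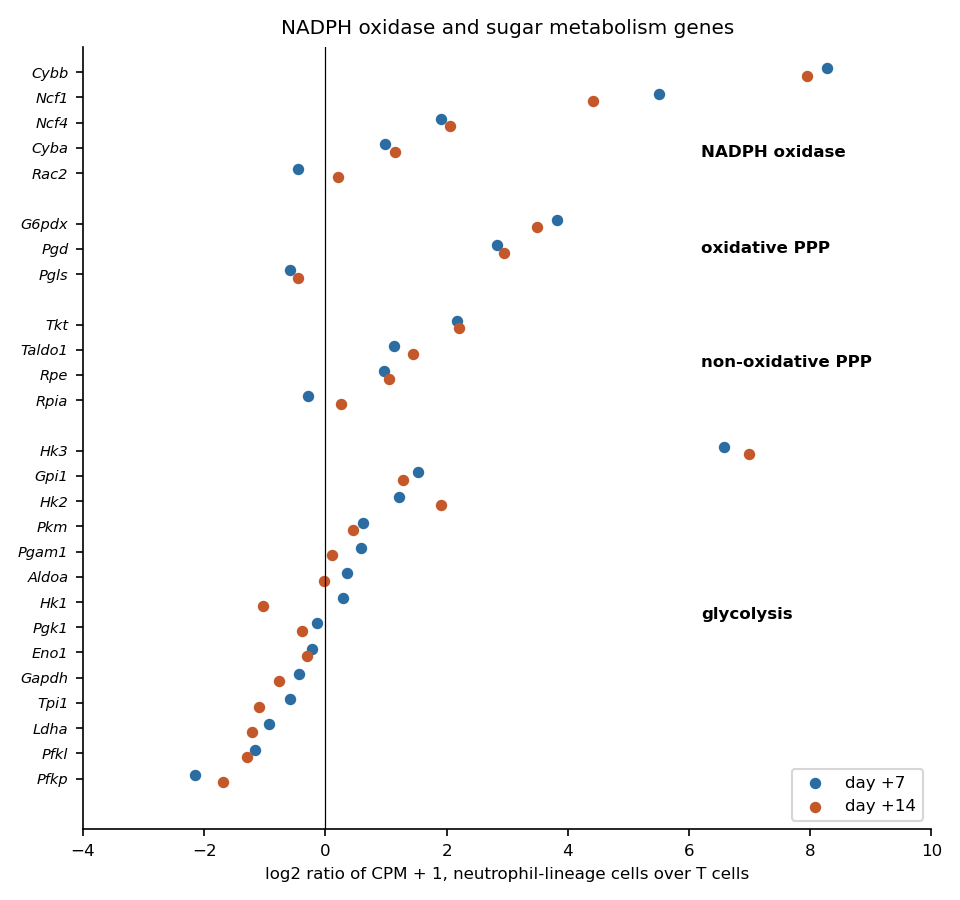
Log2 ratio of CPM plus 1 in neutrophil-lineage cells over T cells of the same library (horizontal) for genes of the NADPH oxidase, both branches of the pentose phosphate pathway (PPP) and glycolysis with at least 10 CPM in the members of a library, less any not reported here, at day +7 (blue) and day +14 (orange). Cybb, Ncf1, G6pdx, Pgd, Tkt and Hk3 lie to the right of 2 on both days, and Pfkp and Pfkl lie to the left of −1 on both.

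Cycling genes were found in part of the members. After thinning to 2000 UMIs, at least 3 of 18 cycling genes were detected in 12 of 34 members at day +7 (35.3% [19.7, 53.5]) and in 13 of 54 at day +14 (24.1% [13.5, 37.6]), and in 69.7% and 70.9% of the T cells. Unthinned, the shares of members were 44.1% and 40.7%. The order of the days was not stable, with 26.7% and 27.5% without the cells that held monocyte genes and 23.5% and 25.4% after thinning to 1000 UMIs. All 4 cells of the azurophil range were among them. The list as a whole was at 0.488-fold and 0.605-fold its level in T cells. Hmgb2, 1 of the 18 genes, had UMIs in 34 of 34 and 59 of 59 members unthinned, so it could count toward the 3 genes in any member. In the specific range alone it held 873 and 1008 UMIs, against 1938 and 2285 for the whole list over all members. Free RNA from cycling T cells was not removed, and these shares are not phases of the cell cycle. Between the days, 10 of the 12 cycling genes used were higher at day +14, with a median of 0.33 and 2 past 2-fold. These were Ube2c, a ubiquitin-conjugating enzyme of mitosis, with 36 UMIs in 11 cells and 85 in 15 (1.35 [0.78, 1.97]), and Cenpf, a kinetochore protein (1.01 [0.11, 2.003]).

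Of 17 interferon-response genes, 12 were used, with 5 higher and 7 lower at day +14 and a median of −0.18, which was 0.30 for the mean of per-cell CPM, 0.019 with at most 2 T gene UMIs, −0.089 without the cells that held monocyte genes and −0.92 in the specific range. Ifitm1, an interferon-induced membrane protein that restricts viral entry, was at 628 and 203 CPM, a ratio of −1.63, and Ifitm2 at 1066 and 416 CPM, a ratio of −1.36, with both intervals under 0. For Ifitm1 the mean of per-cell CPM gave −0.98, the specific range alone −2.19 and the members without the highest Scrublet scores −2.42. Their ratios in T cells were −4.95 and −4.72, and the part of free RNA in the members' values was not tested. Isg15, a ubiquitin-like protein, had −0.60 [−1.16, −0.06].

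Of 16 receptor and surface genes, 15 were used, with a median of 0.095. Cxcr4, the chemokine receptor that holds neutrophils in the marrow, had 19 UMIs in 12 cells at day +7 and 54 UMIs in 29 cells at day +14, 42.2 against 130 CPM and a ratio of 1.61 [0.85, 2.47]. In T cells it had a ratio of 1.29. Fpr2, a receptor of formyl peptides, was at 413 and 411 CPM. Inflammatory mediators were sparse. Of 14, 3 were used, all higher at day +14. Thbs1, thrombospondin 1, had 6 UMIs in 1 cell at day +7 and 44 UMIs in 13 cells at day +14 (2.91 [1.76, 4.52]), Hdc, the histidine decarboxylase that makes histamine, had 50 and 81 (0.81 [0.29, 1.36]), and Nfkbia had 0.64 [0.17, 1.13]. Il1b had 10 UMIs in 3 cells and 20 in 6, and Ptgs2 and Il1a had 0 in the members of either day.

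Beyond the lists, the highest ratio was that of Ncam1, the neural cell adhesion molecule CD56, with 0 UMIs in 34 cells at day +7 and 21 UMIs in 13 of 59 cells at day +14, at most 4 in a cell. Against a floor of 3 counts over the day +7 members this is at least 7.62-fold higher, and in T cells Ncam1 stood at 1.55 and 0.282 CPM. Cd84 (2.62), Ncapd3 (2.39), Erbin (1.98), 1700047M11Rik (1.76), Tmem205 (1.71) and Smarca2 (1.71) followed, each with 4 to 9 UMIs at day +7. Trbc2 (2.58) and Ccl5 (2.07) were also among the 10 highest. These are T cell transcripts at 57.99 and 86.98 CPM in the members of day +14 and at 2820 and 6024 CPM in its T cells. Trbc2 is also a gene of the rule. Among the lowest ratios outside the lists, the histone genes Hist1h2bj (−2.89) and Hist1h2ap (−2.20) and Gm10076 (−2.33) were also lower in T cells (−1.80, −2.55 and −1.47). Sec61a1, a subunit of the channel into the endoplasmic reticulum (−2.25), Gm14548 (−2.66) and Cd38 (−2.05) were not lower by that much in T cells, where they had −0.042, 0.052 and 1.42.

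The 10 genes outside the lists that stood highest over T cells on both days were Wfdc21, Lyz2, Alox5ap, Lrg1, Mcemp1, C3, Pygl, Ckap4, Mgst1 and Tyrobp. Lyz2, the lysozyme of myeloid cells, was at 7811 and 10595 CPM, against 1.43 and 6.58 CPM in T cells. Pygl, the glycogen phosphorylase, was at 404 and 452 CPM in 30 of 34 and 52 of 59 cells, against 0.261 and 0.368 CPM. Alox5ap, which helps 5-lipoxygenase to make leukotrienes, was at 1539 CPM [1426, 1658] and at 812 CPM [727, 903], a ratio of −0.92 [−1.11, −0.73], and it was found in 33 of 34 and 55 of 59 cells. Its intervals of level did not overlap between the days.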

How the data were processed

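Donor cells sorted from pooled recipient spleens were measured in 2 droplet libraries on the 10x Genomics Chromium system, 1 per day. The authors deposited UMI counts per gene and barcode, whole numbers without normalization, for the barcodes that passed the cell detection of Cell Ranger. The submitters' processing notes name Cell Ranger 6.1.2 and the build mm10. There were 7355 barcodes with 87124828 UMIs at day +7 and 8043 barcodes with 84233811 UMIs at day +14, over 32285 genes. The members and lists were chosen with earlier results of these data known, the stefin A, mitochondrial and monocyte sums after the values described here. Columns of per-sample values that belong to no sample here number 0.

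UMIs were summed over members per library and scaled to CPM, and log2 ratios were taken after 1 CPM was added. A called gene is one past 2-fold. Shares carry exact binomial (Clopper-Pearson) intervals, levels exact Poisson intervals and ratios exact conditional binomial intervals, at 95%. PCR and sampling of mice add error that they do not cover. Levels and ratios treat the UMIs of 1 cell as separate draws, so their intervals leave out the spread between cells as well. Free RNA was not corrected. Cells were thinned to 2000 UMIs without replacement with a fixed seed. The genes named are those of the lists, the 10 highest and 10 lowest ratios at 50 CPM or more whose direction holds without their richest cell of each library, and the 10 highest over T cells outside the lists. Calculations were tested on simulated data. Positions and promoters come from RefSeq (GRCm38.p6), the build that mm10 names. Python 3.11.15, numpy 2.4.6, scipy 1.17.1, pandas 2.3.3, scanpy 1.11.5, matplotlib 3.10.9 and, for pairwise alignment, Biopython 1.88 were used. Alternatives covered the limits of the rule, the removal of high Scrublet scores, the scaling, the pseudocount, the filters, the limits of the ranges and the thinned depth. Some genes of the lists, which enter the counts and sums, are not reported here by name.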

Additional observations from a re-analysis of the deposited data

How the results depend on the processing

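No paired analysis was possible because each day is 1 library and no replicate exists to pair or to leave out. Of 210 comparisons of the main values with an alternative, 195 stayed within the counting interval of the main value or within 1.5 times its count, and 15 did not. Of these 195, 20 came from raising the S100 limit to 100 UMIs, which kept the same members and could not move a value. The counts of genes at least 2-fold higher and lower moved most. They were 314 and 323 with the mean of per-cell CPM, 108 and 97 with 10 CPM added, 2389 and 1422 with no filter on level or cells, and 57 and 49 with at least 50 CPM. The share of members at day +7 was 0.766% with no limit on T genes. The low range at day +7 was 0% with halved limits, and the specific range at day +14 was 76.3% after thinning to 1000 UMIs. The median of the stefin A genes was −3.80 without the highest Scrublet scores and −4.29 in the specific range alone. Without cells bearing monocyte genes the median of the mitochondrial genes was −1.36 and that of the glycolysis genes 0.081, and that of the interferon genes −0.92 in the specific range alone. Changes of sign were confined, among the medians, to the interferon genes (0.019 with at most 2 T gene UMIs and 0.30 with the mean of per-cell CPM) and the genes of mature neutrophils (−0.026 without the highest Scrublet scores and −0.16 in the specific range alone). The alternatives on monocyte genes, on the deepest cells, on Gm42418 and on the specific range alone were chosen after seeing the data. Of 492 values of single genes under alternatives, 27 moved beyond their interval and 465 did not, and Retnlg, near 0, lay between −0.43 and 0.093. The 465 include 41 from the S100 limit of 100 UMIs, which could not move. Median-ratio scaling shifted all ratios by −0.0069. Leaving out the deepest member of each library moved 0 of the 12 main values it touches. The causes of these shifts were not tested. With 34 and 59 cells, a gene near 10 CPM rests on 4 to 5 UMIs, so that single genes at that level are not resolved.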

Other observations

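Stfa3, which had 0 UMIs in the members of day +14, was found in 50 of the 7538 T cells of that library, with 329 UMIs in all and up to 52 in a cell. In the T cells of day +7 it had 1 UMI in 6860 cells. These values were chosen after they were seen.

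At day +14, 7 members had fewer than 20 UMIs of the 5 specific granule genes before thinning, and all 7 had between 1301 and 2969 UMIs in total. In 6 of them Retnlg had 7 to 176 UMIs, and the other had 0 of Retnlg and 68 of the azurophil genes. After thinning to 2000 UMIs, the 3 of them that were deep enough held 0, 4 and 5 specific granule UMIs, against a median of 227.5 in the specific range. The other day +14 members between 1301 and 2969 UMIs held 42 to 784 specific granule UMIs unthinned, the lowest 42, 47 and 79. These cells were chosen after their values were seen.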
